A study of Mus musculus with 30 samples.

Results

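The set described here comprised 10 genes through which cells sense oxygen: the subunits of the hypoxia-inducible factors (HIFs), Hif1a, Epas1, Hif3a and Arnt; the enzymes and the adaptor that act on them, Egln1, Egln2, Egln3, Hif1an and Vhl; and Cited2, an inhibitor of HIF activity. Members were all probe sets of the 3 array types annotated with exactly 1 of these symbols. This gave 23 probe sets of 36899, and 10 genes of 15965. A probe set is the group of short oligonucleotides on the array that measures a transcript. Of the 23 probe sets, 19 lay above a floor on low values on at least 2 arrays and were tested, among 25801 tested probe sets.

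RNA was taken from whole mouse lung and hybridised to Affymetrix MG-U74 version 2 arrays, sold as 3 types named A, B and C, each with probe sets of its own. The animals had been held in a chamber at 10% oxygen for 10 h, 2 d, 4 d or 6 d, an exposure meant to bring on pulmonary hypertension, and a further group was titled Norm. Strain, age, sex and any pooling of animals are not stated in the labels. The titles do not spell out Norm, and the description attached to the Norm samples names an acute rejection, which none of the titles mention; the titles were followed. A group had 2 samples (1a and 1b), and every sample was run on 1 array of each type. Since the labels do not tie the letters to different animals, the p-values measure how far such samples spread, and that spread may be technical.

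HIFs are transcription factors made of an oxygen-regulated alpha subunit (Hif1a, Epas1 or Hif3a) and the stable partner Arnt. When oxygen is present, the prolyl hydroxylases encoded by the Egln genes modify the alpha subunit, Vhl then binds it as part of a ubiquitin ligase, and the subunit is degraded; Hif1an hydroxylates an asparagine and so blocks the contact with coactivators. In low oxygen these reactions slow down, the alpha subunit accumulates as protein, and genes with a HIF binding site are switched on. Control of the alpha subunits is thus mainly at the protein, which these arrays do not measure. In lung, Epas1 is abundant in endothelium, and both Hif1a and Epas1 are known from mouse genetics to take part in the response of pulmonary vessels to chronic hypoxia.

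HIF binds a short core read as ACGTG or GCGTG. To show what the upstream sequence of the members looks like, both cores were searched on both strands in the 250 bases before each RefSeq transcript start (mouse build GRCm38.p6). The palindrome CACGTG holds ACGTG on each strand and was counted once per strand. Windows were found for 9 of the 10 genes, Epas1 being the gene not covered here, and Egln2 had 2. Of these 10 windows, 8 held at least 1 core, against 38.6% of 32851 windows of the same length over all genes. Hif1a held 3 matches, Hif3a 2, Arnt 1, Egln1 2, Egln3 1 and Cited2 2; the windows of Egln2 held 4 and 1, and those of Vhl and Hif1an held 0. At least 2 matches were found in 16.7% of all windows and at least 3 in 6.58%. Both cores contain CG, and the shares over all windows were not matched for G and C content. That content ran from 48% to 86% in the member windows. A match describes letters and is not evidence of binding. The 4 windows below are shown because they belong to an alpha subunit that was not called at any time (Hif1a), to the member that fell at 2 d and has a window (Cited2), and to the hydroxylases widely known as HIF targets (Egln1 and Egln3). Each is written 5′ to 3′ on the strand of the gene, with the core in capitals.
Hif1a, chr12:73907617-73907866, plus strand: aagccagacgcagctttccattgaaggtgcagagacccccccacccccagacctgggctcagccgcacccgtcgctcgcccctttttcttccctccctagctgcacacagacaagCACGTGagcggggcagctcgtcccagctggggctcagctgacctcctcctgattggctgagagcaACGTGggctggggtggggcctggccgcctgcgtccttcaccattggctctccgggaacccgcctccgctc
Cited2, chr10:17722978-17723227, plus strand: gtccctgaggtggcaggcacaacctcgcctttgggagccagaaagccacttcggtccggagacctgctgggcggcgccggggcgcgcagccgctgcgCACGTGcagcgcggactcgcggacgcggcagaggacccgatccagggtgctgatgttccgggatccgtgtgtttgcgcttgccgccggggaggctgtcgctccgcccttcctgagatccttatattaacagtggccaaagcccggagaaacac
Egln1, chr8:124949255-124949504, minus strand: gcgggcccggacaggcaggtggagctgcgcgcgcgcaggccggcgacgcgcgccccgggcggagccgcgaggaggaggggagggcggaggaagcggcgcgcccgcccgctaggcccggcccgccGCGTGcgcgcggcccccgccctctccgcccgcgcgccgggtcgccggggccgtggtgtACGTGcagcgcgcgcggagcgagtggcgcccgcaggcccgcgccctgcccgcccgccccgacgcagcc
Egln3, chr12:54203875-54204124, minus strand: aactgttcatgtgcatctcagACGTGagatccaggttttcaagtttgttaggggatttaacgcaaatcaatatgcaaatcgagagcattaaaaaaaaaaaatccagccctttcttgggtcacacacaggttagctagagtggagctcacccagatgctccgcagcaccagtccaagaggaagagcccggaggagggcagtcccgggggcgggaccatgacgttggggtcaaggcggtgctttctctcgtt
In Hif1a the palindrome lay with its overlapping cores 135 and 134 bases before the start, and a further core lay 70 bases before it. In Cited2 the only cores were those of a palindrome, at 153 and 152 bases. Egln1 held a GCGTG at 126 and an ACGTG at 68 bases, in a window of 86% G and C, and Egln3 held an ACGTG at 229 bases in a window of 50.8% G and C.

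Values are array intensities on a linear scale. The trimmed means of the 29 arrays used lay between 800.2 and 800.4. A 30th array was left out: it is titled Norm 1a of type A, was placed among the B arrays, and had Spearman correlations of -0.00277 to 0.00963 with those. Type A therefore had 9 arrays with 1 Norm array (1b), and tests on A against Norm assume that this lone array varied as the other groups did. Markers of lung were well above the floor of 236.05 on A: the surfactant genes Sftpc (3316 to 42808) and Sftpb (9349 to 17146), the club cell gene Scgb1a1 (4110 to 45063), the alveolar type 1 gene Ager (8228 to 25455) and the endothelial gene Cdh5 (7313 to 15088) exceeded it on all 9 arrays, and Pecam1 (204 to 755) on 8. RNA of the 2 d samples stood apart on the array controls: the 3′ signal of Gapdh over its 5′ signal, a measure of RNA integrity, was 3.64 to 4.60 on the 6 arrays of 2 d and 0.786 to 1.68 on the 23 others. The 6 d arrays lay at 1.40 to 1.68, and the 17 arrays of Norm, 10 h and 4 d at 0.786 to 1.51. The same ratio of actin was 3.64 to 4.98 at 2 d, 0.474 to 1.66 at 6 d and 0.0272 to 0.926 on those 17 arrays. On the B arrays of Norm the actin ratio was 0.0453 and 0.775, so it also varied within a group. By accession number, the arrays of 2 d and 6 d form a run of their own, the B and C arrays of Norm, 10 h and 4 d another, and the A arrays of those groups a further one. The labels do not call these runs technical batches. If they are, in 2 d minus Norm and 6 d minus Norm the time in low oxygen cannot be told apart from a difference between these runs.

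The differences from Norm that passed the test were at 2 d: Epas1 on probe set 102698_at and Cited2 fell, by 5.12-fold and 3.30-fold. No member probe set passed the test at 10 h, 4 d or 6 d. The test was limma's moderated test on log2 intensities, fitted to all arrays of a type, with Benjamini-Hochberg adjustment over all 25801 probe sets and a threshold of 0.05. At 2 d it called 2 of 19 member probe sets, against 480 or 1.86% of all probe sets tested; for calls in the lower direction the share was 1.09%. At 10 h it called 0 of 19 (0% of all probe sets), at 4 d 0 of 19 (0.00775%) and at 6 d 0 of 19 (0%). The members' smallest adjusted p was 0.841 at 10 h, 0.875 at 4 d and 0.415 at 6 d. At an unadjusted p under 0.05 the members numbered 0, 3, 0 and 2 of 19 at 10 h, 2 d, 4 d and 6 d, where all probe sets gave 6.11%, 18.9%, 6.13% and 9.17%. The 4 comparisons share the same Norm arrays. The median log2 difference of the 19 was 0.03 at 10 h, 0.12 at 2 d, 0.02 at 4 d and 0.09 at 6 d. In whole tissue, fewer cells that express a gene and less RNA per cell cannot be told apart.

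**Figure D1:**
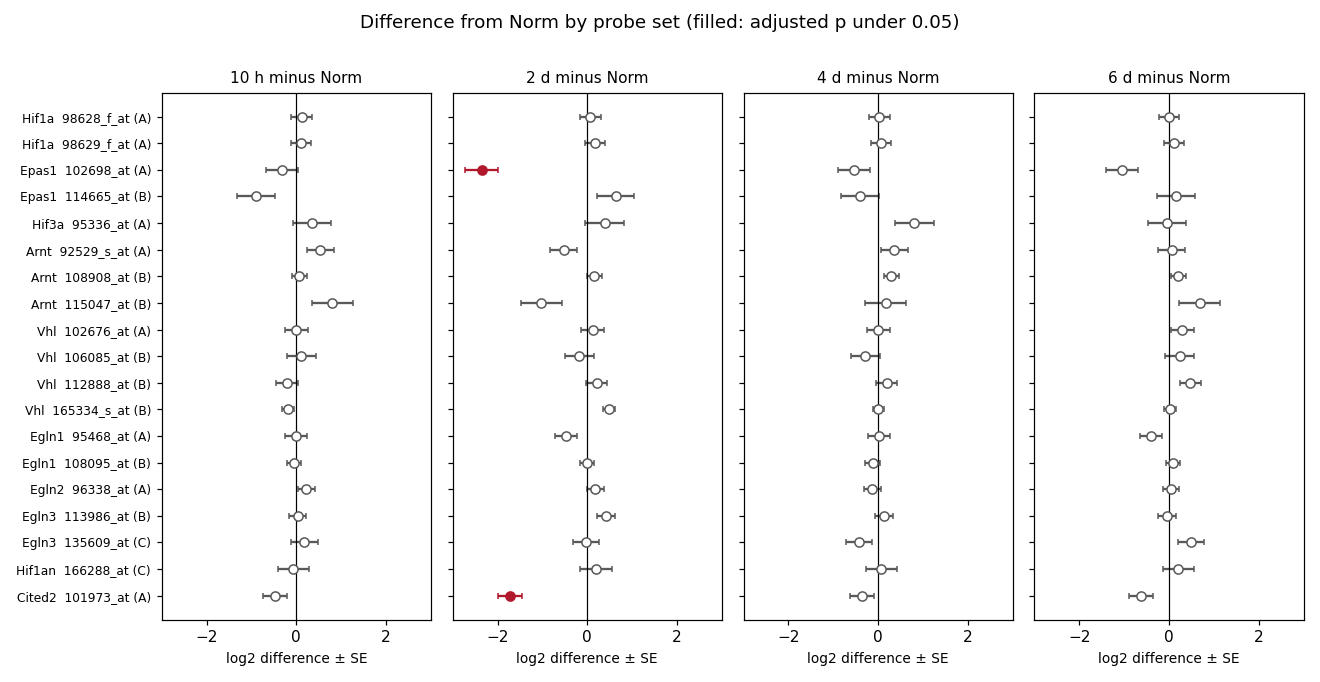
Log2 difference from Norm (horizontal axis) of the 19 tested member probe sets at 10 h, 2 d, 4 d and 6 d, with bars of 1 SE of the limma fit; the letter in brackets is the array type, and filled points have an adjusted p under 0.05. The filled points are Epas1 102698_at at -2.36 and Cited2 at -1.72, both at 2 d.

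Hif1a, the broadly expressed alpha subunit, was read by a pair of probe sets on A, 98628_f_at and 98629_f_at, whose suffix marks probes shared within a family of sequences. On 98628_f_at the intensities were 4798 in Norm, 5410 and 5040 at 10 h, 4194 and 6051 at 2 d, 4922 and 4849 at 4 d, and 5081 and 4534 at 6 d. On 98629_f_at they were 4787, then 5241 and 5098, 4605 and 6291, 4915 and 5152, and 5596 and 4786 in the same order. The probe sets moved as a pair, with a ratio between 0.908 and 1.03 on each of the 9 arrays, and the widest gap within a group was that between the 2 d arrays, which spanned the Norm value. Differences from Norm on 98628_f_at ran from 0.00 ± 0.23 (log2, SE) at 6 d to 0.12 ± 0.23 at 10 h, and the 95% interval at 10 h was -0.41 to 0.65. Adjusted p-values (limma) of Hif1a against Norm were 0.738 or more on both probe sets. The data do not show that Hif1a stayed the same: the intervals allow changes of about the size of their bounds.

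Epas1, which encodes the alpha subunit HIF-2alpha, was read by probe set 102698_at on A and 114665_at on B, and these disagreed. On 102698_at the intensity was 1833 in Norm, 1350 and 1595 at 10 h, 363 and 354 at 2 d, 1599 and 989 at 4 d, and 710 and 1099 at 6 d. The 2 d arrays were the lowest of all 9, and the Norm array was the highest. The difference at 2 d was -2.36 ± 0.36 (log2, SE; 95% interval -3.18 to -1.53; adjusted p = 0.0247, limma). At 6 d both arrays were also under Norm, with -1.05 ± 0.36, which did not pass (adjusted p = 0.415), and the differences at 10 h (-0.32) and 4 d (-0.54) did not pass either (adjusted p = 0.979 and 0.883). An F test over the 4 differences from Norm called 1 of the 19 member probe sets, Epas1 102698_at (adjusted p = 0.0438), against 1.24% of all probe sets; at an unadjusted p under 0.05 it held 6 of 19, against 19.6%.

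On 114665_at the same samples gave 20553 and 31318 in Norm, 9417 and 19736 at 10 h, 40749 and 37991 at 2 d, 18279 and 20134 at 4 d, and 30342 and 26445 at 6 d. Here the 2 d arrays were the highest of all 10, where on 102698_at they were the lowest. The difference at 2 d was 0.63 ± 0.42 (adjusted p = 0.454), and that at 10 h, -0.90 ± 0.42, was the largest of this probe set against Norm (adjusted p = 0.841). No difference of 114665_at passed the test, the F test included (adjusted p = 0.236). Under quantile normalization the difference at 2 d turned to -0.17. On the values as deposited, the direction of Epas1 at 2 d therefore depended on the probe set. For 114665_at it also depended on the normalization, and the call rests on 102698_at alone. The brightest intensity on a B array was 62096 and 59898 at 2 d and 13454 to 38004 on the other B arrays. The part of this in the 2 d values of 114665_at was not tested. Annotation pairs both probe sets with the gene, and which part of the transcript each probes was not analysed here.

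**Figure D2:**
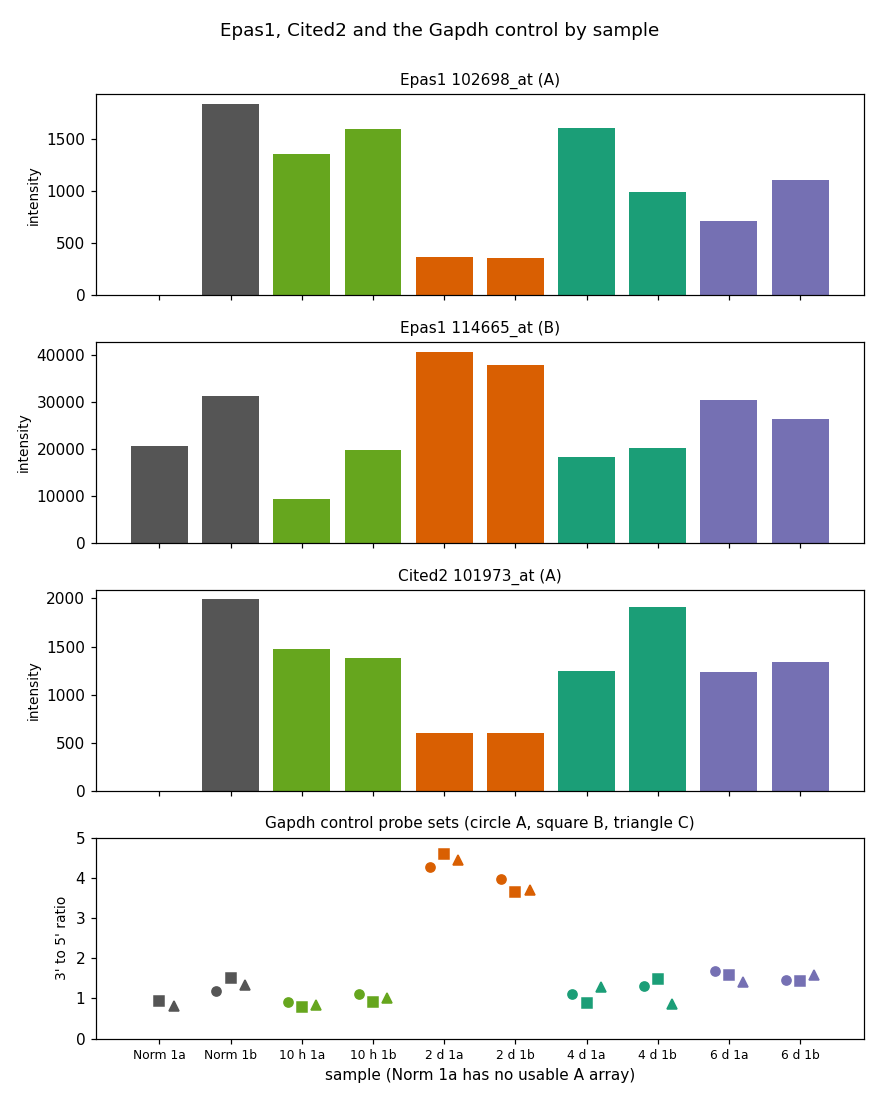
Intensity (vertical axis, linear) of both Epas1 probe sets and of Cited2 in each sample, with the 3′ to 5′ ratio of the Gapdh control on the arrays of each sample in the bottom panel; bars and points are single arrays. At 2 d, Epas1 102698_at (363 and 354) and Cited2 (604 and 603) are at their lowest, Epas1 114665_at (40749 and 37991) is at its highest, and the Gapdh ratio lies between 3.64 and 4.60.

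Hif3a, the alpha subunit with isoforms that restrain the others, lay near the floor. On 95336_at the intensities were 292 in Norm, 325 and 428 at 10 h, 345 and 423 at 2 d, 370 and 709 at 4 d, and 200 and 341 at 6 d. All arrays but 6 d 1a were above the floor, and 4 d 1b stood out as the highest. The difference from Norm at 4 d was 0.81 ± 0.43 with an adjusted p of 0.875 (limma), and the arrays of 6 d spanned the Norm value.

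Arnt, the partner shared by the alpha subunits, had 3 tested probe sets with different courses. Probe set 108908_at on B gave 5822 and 6630 in Norm, 5871 and 7213 at 10 h, 6780 and 7080 at 2 d, 7755 and 7450 at 4 d, and 7255 and 7125 at 6 d. Its largest difference from Norm was 0.29 ± 0.17 at 4 d, where both arrays were above all others, and this did not pass (adjusted p = 0.882). On 92529_s_at (A), intensities were 343 in Norm, 499 and 497 at 10 h, 199 and 242 at 2 d, 375 and 516 at 4 d, and 316 and 407 at 6 d. On 115047_at (B) they were 1098 and 753, 1506 and 1665, 201 and 669, 1567 and 670, and 1665 and 1291 in the same order. On both of these probe sets the 2 d arrays were below all others and the 10 h arrays above Norm, and on each of them 1 of the 2 d arrays was under the floor. On 115047_at the margin was thin, 669 in 2 d 1b against 670 in 4 d 1b. Against Norm the 2 d differences were -0.52 ± 0.30 on 92529_s_at (adjusted p = 0.397) and -1.03 ± 0.46 on 115047_at (adjusted p = 0.267). The remaining probe set, 97185_at on A, was under the floor on all 9 arrays (43 to 160) and was not tested.

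The prolyl hydroxylases came next in the pathway. Egln2 (96338_at on A), the family member not counted among the usual hypoxia-induced genes, gave 2149 in Norm, 2501 and 2517 at 10 h, 2693 and 2199 at 2 d, 2012 and 1928 at 4 d, and 2073 and 2366 at 6 d. The 10 h and 2 d arrays were above Norm and the 4 d arrays were the lowest of all. The differences from Norm were small, 0.22 ± 0.18 at 10 h and -0.13 ± 0.18 at 4 d (adjusted p = 0.934 and 0.952). Between 4 d and 10 h, a comparison without Norm arrays, Egln2 differed by -0.35 ± 0.15, which did not pass (adjusted p = 0.608); that comparison called 0 of 19 members and 0.0233% of all probe sets, and at an unadjusted p under 0.05 it held 1 of 19, against 8.08%.

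Egln1, the hydroxylase that sets the level of HIF in most cells, was read on A by 95468_at and on B by 108095_at. On 95468_at the intensities were 1672 in Norm, 1671 and 1667 at 10 h, 1409 and 1034 at 2 d, 1527 and 1871 at 4 d, and 1149 and 1387 at 6 d. The 2 d and 6 d arrays were below Norm, by -0.47 ± 0.25 and -0.41 ± 0.25, and neither passed (adjusted p = 0.352 and 0.691). On 108095_at the values were 2803 and 2277 in Norm, 2292 and 2563 at 10 h, 2598 and 2427 at 2 d, 2398 and 2239 at 4 d, and 2945 and 2462 at 6 d. These groups overlapped, and the difference at 2 d was -0.01 ± 0.16 with a 95% interval of -0.36 to 0.35. The other probe sets of Egln1, 106806_at on B (59 to 224) and 168642_i_at on C (34 to 271), were above the floor on 0 and 1 of 10 arrays and were not tested.

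Egln3, the hydroxylase best known as a HIF target, was not called higher at any time. On 135609_at (C) the intensities were 748 and 922 in Norm, 1009 and 874 at 10 h, 741 and 895 at 2 d, 524 and 730 at 4 d, and 1116 and 1223 at 6 d. The 4 d arrays were the lowest and the 6 d arrays the highest of all 10. The differences from Norm were -0.43 ± 0.30 at 4 d and 0.49 ± 0.30 at 6 d (adjusted p = 0.885 and 0.685). On 113986_at (B) the values were 296 and 357 in Norm, 317 and 347 at 10 h, 461 and 411 at 2 d, 427 and 265 at 4 d, and 336 and 253 at 6 d, of which 7 of 10 were above the floor of 297.36. There the 2 d arrays were above Norm, by 0.42 ± 0.19, without passing (adjusted p = 0.281), and the 6 d arrays, highest on the other probe set, were not raised.

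Hif1an, the asparaginyl hydroxylase, gave on 166288_at (C) 1984 and 1646 in Norm, 2270 and 1310 at 10 h, 2018 and 2123 at 2 d, 1333 and 2710 at 4 d, and 1922 and 2274 at 6 d. The arrays of 10 h and of 4 d lay wide apart and spanned the Norm values, and the largest difference from Norm was 0.21 ± 0.35 at 6 d (adjusted p = 0.927). The other probe set, 108869_at on B, was under the floor on all 10 arrays (66 to 278).

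Vhl, the substrate-binding part of the ubiquitin ligase, had 4 tested probe sets. On 165334_s_at (B), the intensities were 4643 and 4761 in Norm, 4174 and 4119 at 10 h, 6574 and 6596 at 2 d, 4940 and 4520 at 4 d, and 4810 and 4735 at 6 d. The 2 d arrays were the highest and the 10 h arrays the lowest of all 10, with little spread within either group. The 2 d difference, 0.49 ± 0.13 (95% interval 0.19 to 0.78), did not pass against Norm (adjusted p = 0.0898), and that at 10 h was -0.18 ± 0.13 (adjusted p = 0.920). On 112888_at (B) the values were 1538 and 1322 in Norm, 939 and 1624 at 10 h, 1550 and 1762 at 2 d, 1652 and 1610 at 4 d, and 1932 and 2043 at 6 d. Here the 6 d arrays were the highest instead, by 0.48 ± 0.24 over Norm (adjusted p = 0.605). On 106085_at (B) intensities were 315 to 649 and every time overlapped with Norm. On 102676_at (A) they were 18 to 358, with 2 of 9 arrays above the floor, so that little can be read from it.

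Cited2 encodes a protein that competes with the HIF alpha subunits for the coactivators Ep300 and Crebbp, and it is itself known as a HIF target. Its probe set 101973_at (A) gave 1990 in Norm, 1475 and 1385 at 10 h, 604 and 603 at 2 d, 1242 and 1915 at 4 d, and 1239 and 1339 at 6 d. All 8 arrays of low oxygen were below the Norm array, and the 2 d arrays were far below the rest. Cited2 fell at 2 d by 1.72 ± 0.27 on the log2 scale (95% interval -2.33 to -1.11; adjusted p = 0.0249, limma). The differences at 10 h (-0.48 ± 0.27), 4 d (-0.37 ± 0.27) and 6 d (-0.63 ± 0.27) did not pass, with adjusted p-values of 0.901, 0.886 and 0.525. In the F test Cited2 missed the threshold narrowly (adjusted p = 0.0507).

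**Figure D3:**
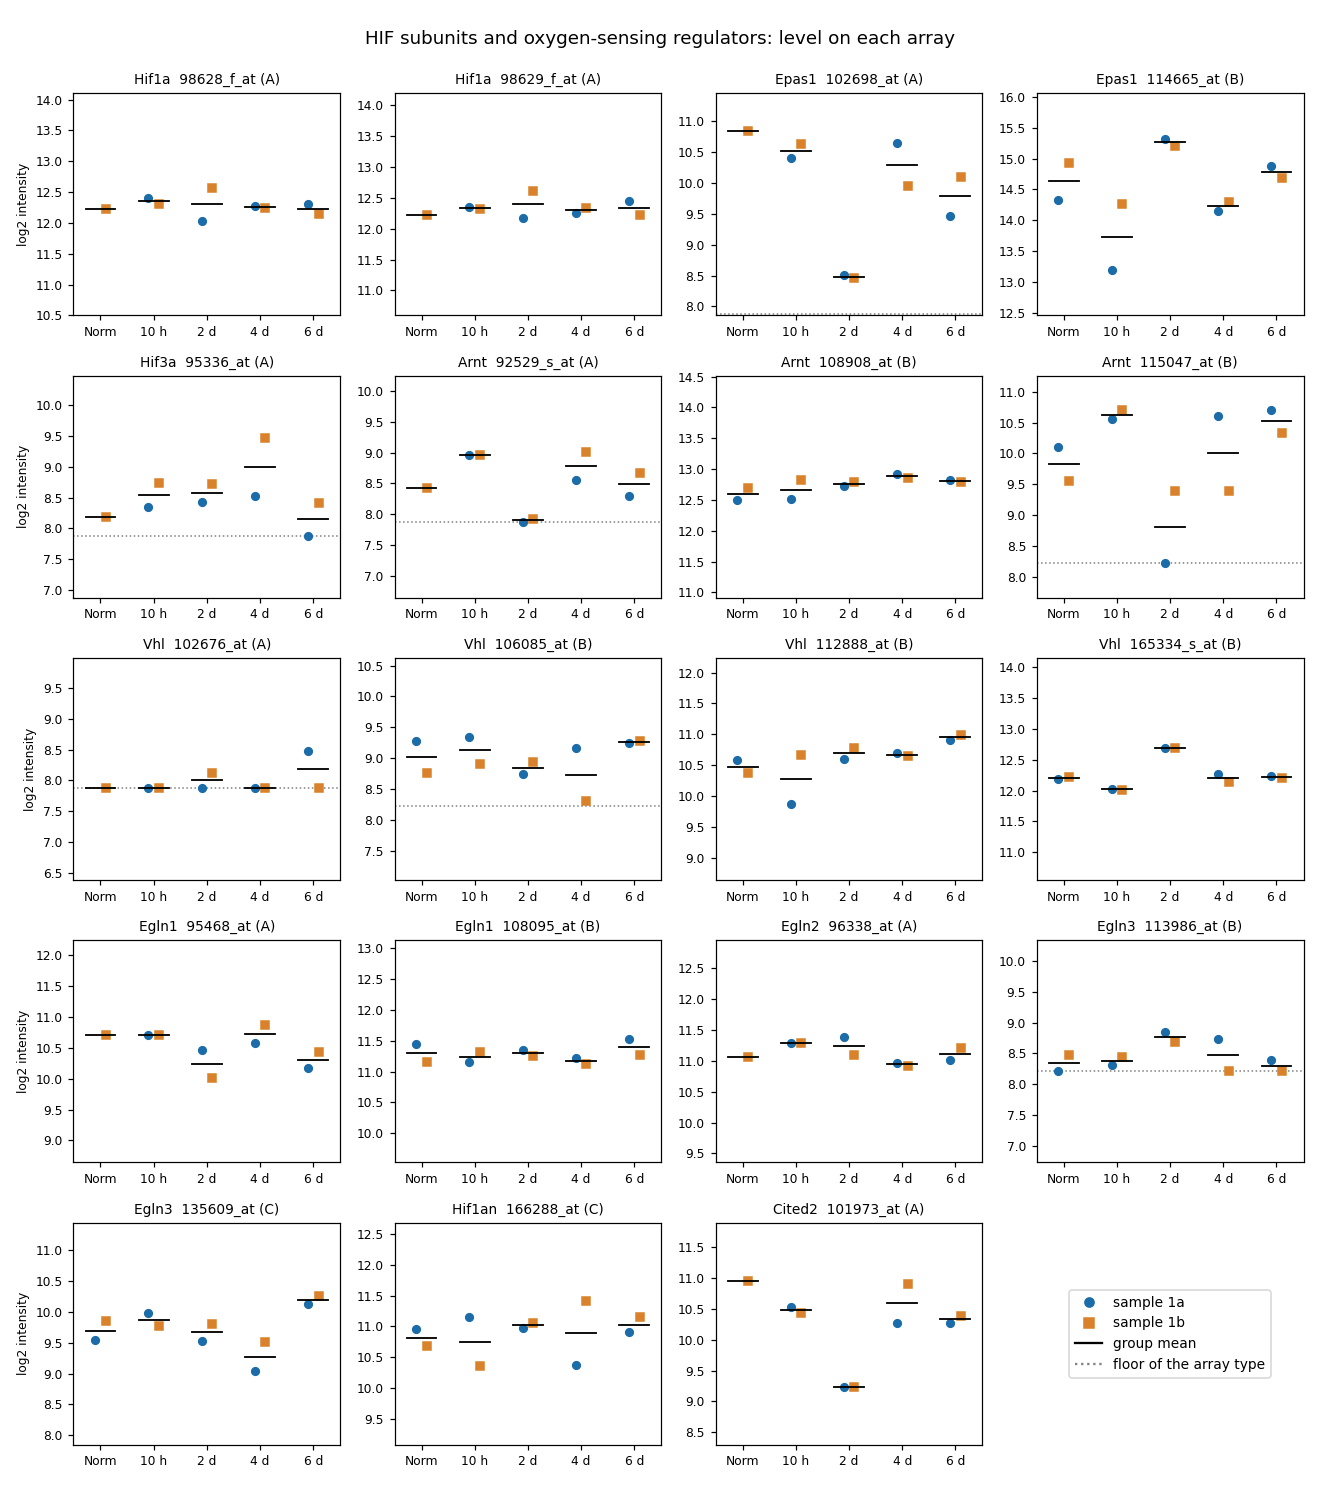
Log2 intensity (vertical axes, all of the same span) of the 19 tested member probe sets in Norm and at 10 h, 2 d, 4 d and 6 d; circles are samples 1a, squares samples 1b, lines are group means, and dotted lines mark the floor where it falls within the panel. The 2 d points of Epas1 102698_at and Cited2 lie apart below the others, those of Epas1 114665_at and Vhl 165334_s_at above, and the Hif1a panels show overlapping groups.

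Both calls at 2 d rest on few arrays. Leaving out 1 sample at a time, the adjusted p (limma) of Epas1 102698_at rose to 0.0951 and 0.105 without 2 d 1a and 1b, to 0.0646 and 0.0644 without 10 h 1a and 1b, and to 0.0539 and 0.0511 without 6 d 1a and 1b; for Cited2 the values were 0.0951 and 0.103, 0.0648 and 0.0644, and 0.0694 and 0.0639. The differences themselves stayed between -2.37 and -2.34 for Epas1 102698_at and at -1.72 for Cited2. Without Norm 1b, no Norm array of type A is left and neither can be tested. Neither passed when dim probe sets were kept in (adjusted p = 0.0912 and 0.075) or when only the groups compared were fitted (0.195 and 0.202). Without the 2 d arrays, a fit added after the data had been seen, the F test called 0 of 19 members, with a smallest adjusted p of 0.526.

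Epas1 102698_at and Cited2 were also compared without the Norm arrays. Between 6 d and 2 d, whose accession numbers lie in the same run, 0 of 19 members passed, against 0.062% of all probe sets. At an unadjusted p under 0.05, 6 of 19 members differed, against 13% of all probe sets. Cited2 was 1.09 ± 0.22 higher at 6 d (log2; adjusted p = 0.109), Epas1 102698_at 1.30 ± 0.29 higher (0.126) and Arnt 115047_at 1.72 ± 0.46 higher (0.161). Vhl 165334_s_at stood at -0.46 ± 0.13 (adjusted p = 0.180). The Gapdh 3′ to 5′ ratio also differed between these groups, at 1.40 to 1.68 for 6 d and 3.64 to 4.60 for 2 d. Its part in these differences was not tested. Late minus early, the mean of 4 d and 6 d against that of 10 h and 2 d, called 0 of 19 (0.0155% of all; unadjusted 2 of 19, against 11%), with Cited2 at 0.60 ± 0.15 (adjusted p = 0.258) and Epas1 102698_at at 0.54 ± 0.21 (0.397). The mean of the 4 low-oxygen groups minus Norm called 0 of 19 (0% of all; unadjusted 2 of 19, against 7.79%), with Cited2 at -0.80 ± 0.23 (0.447) and Epas1 102698_at at -1.07 ± 0.31 (0.459).

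A comparison of 2 d with the mean of the other low-oxygen times, also added after the data had been seen, called 5 of 19 member probe sets, against 5.66% of all probe sets. Epas1 102698_at differed by -1.72 ± 0.24 (adjusted p = 0.0112), Cited2 by -1.23 ± 0.18 (0.0121), Arnt 115047_at -1.58 ± 0.37 (0.0437) and Arnt 92529_s_at -0.84 ± 0.20 (0.0491), and Vhl 165334_s_at by 0.54 ± 0.11 (0.0271; all limma). Epas1 114665_at was 1.01 ± 0.34 higher without passing (adjusted p = 0.115). With the Norm arrays left out of the fit, Arnt 115047_at no longer passed (adjusted p = 0.0616), and the share of all probe sets called was 6.76%. Since these probe sets had been seen to stand apart at 2 d before the comparison was made, it describes them and adds no independent support.

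The 2 d arrays stood apart on many probe sets outside this gene set too. Both 2 d arrays were above all other arrays on 2 of 19 member probe sets (Epas1 114665_at and Vhl 165334_s_at), where 10.1% of all tested probe sets showed this, and below all others on 4 (Epas1 102698_at, Cited2, Arnt 92529_s_at and Arnt 115047_at), where 9.74% did. For 10 h the counts were 0 above and 1 below (3.82% and 3.53% of all), for 4 d 1 and 2 (3.24% and 3.28%), and for 6 d 2 and 0 (3.14% and 2.55%). Groups did not overlap with Norm on 14 member probe sets at 2 d, 9 higher and 5 lower, against 30.2% and 28.4% of all probe sets. At 10 h they were 6 and 6 (22.6% and 22.7%), at 4 d 6 and 5 (20.3% and 20.6%) and at 6 d 4 and 3 (25.7% and 25.6%). These counts of overlap with Norm used the values without the floor. Vhl 102676_at, at 155.3 in Norm and thus under the floor, counted as higher at 2 d (155.9 and 278) and lower at 10 h. On type A the lone Norm array makes a lack of overlap easier, and the shares of all probe sets were not matched for array type. The Gapdh 3′ to 5′ ratio on A, where both called probe sets lie, was 4.28 and 3.97 at 2 d and 0.909 to 1.68 on the other 7 arrays. Its part in the fall of Epas1 102698_at and Cited2 was not tested.

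Cell markers were summed over the A arrays beside these calls. Endothelial markers, which mark the cells richest in Epas1, summed to 51860 in Norm and to 60386 and 61757 at 2 d over 9 of 9 genes, none of them at the floor. Of the endothelial genes, 6 were higher and 3 lower at 2 d. Over all 14 tested probe sets of these genes 7 were higher and 6 lower, with a median log2 difference of 0.06. Emcn rose by 0.86 ± 0.17 on the log2 scale (adjusted p = 0.0490, limma), and the other endothelial genes did not pass. For other cell types the sum over the markers on A is given with the count of all tested markers higher and lower at 2 d, since a sum follows its brightest genes. The brightest intensity on an A array was 40213 and 45948 at 2 d and 14170 to 32175 on the other A arrays. The part of this in the marker sums was not tested. Alveolar type 2 markers summed to 39114 in Norm and 57706 to 64683 at 2 d (4 of 7 genes on A, Sftpd at the floor in Norm), while 3 of the 7 were higher and 4 lower, Sftpc by 2.46 ± 0.66 and Sftpb by -0.84 ± 0.25, and none passed (adjusted p = 0.0931 and 0.121 for these). Alveolar type 1 markers summed to 44574 and then 62462 to 63312 (4 of 5 on A; 4 higher, 1 lower, 0 called). Club cell markers summed to 26461 and then 41503 to 48481 (2 of 3 on A). Of the 3 club cell genes 2 were higher, with 0 called, and 1 was lower. The lower gene was Cyp2f2, at -2.03 on the log2 scale, and it passed. Sums of smooth muscle (5 of 5; 15774, then 23489 to 25273; 3 genes higher, 2 lower, 0 called) and red cells (5 of 6; 18022, then 39034 to 50144; 5 higher, 0 called; Rhag at the floor in Norm) were also larger at 2 d. Over all 8 tested probe sets of the smooth muscle genes, however, 3 were higher and 5 lower at 2 d, with a median log2 difference of -0.11. The sum of heart muscle was smaller at 2 d, with 16027 in Norm and 7068 to 7588 at 2 d (6 of 6 genes, Csrp3 at the floor at 2 d). Of its genes 0 were higher and 6 lower at 2 d, and 4 passed: Myl7, Myl4, Csrp3 and Tnni3. Over all 9 tested probe sets of the heart muscle genes, 3 were higher and 6 lower. On the heart muscle sum the lone Norm array was above every low-oxygen array, not only those of 2 d. The heart muscle sums were 9030 to 9641 at 10 h, 10482 to 12012 at 4 d and 8136 to 8508 at 6 d. Skeletal muscle summed to 8569 in Norm and 2056 to 2220 at 2 d (6 of 6 genes). The summed probe set of Tnnc2 was at the floor throughout, that of Ckm in Norm. Of the skeletal muscle genes 1 was higher and 5 lower at 2 d, and 2 of them, Acta1 and Myh1, passed as lower. The sum was 621 to 715 at 10 h, with 5 genes at the floor, 3539 to 6373 at 4 d and 2258 to 2340 at 6 d. The Norm array was thus the highest here too. Sums were smaller at 2 d for lymphocytes too (5 of 6; 3470, then 2665 to 3163; 3 tested genes lower, 0 called; Cd3e and Cd3g at the floor throughout) and for fat (2 of 4; 1216, then 1044 to 1144; 1 higher, 1 lower, 0 called). Ciliated cell markers summed to 1571 in Norm and 1129 to 1648 at 2 d (2 of 5 genes on A, Tekt1 at the floor in both). Of the 5 ciliated cell genes 0 were higher and 4 lower at 2 d. Among them Spag6l, Ak7 and Sec14l3 fell (adjusted p = 0.0203, 0.0347 and 0.0474, limma). Over all 8 tested probe sets of these 5 genes, 2 were higher and 5 lower. Macrophage sums (5 of 5, Marco at the floor throughout) were 7192 in Norm and 7788 to 8120 at 2 d, with 2 tested genes higher and 2 lower. The part of these marker differences in the fall of Epas1 102698_at and Cited2 was not tested.

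The genes whose A-type level followed that of Epas1 102698_at most closely over the 9 arrays, among 6270 genes, were Lypla1 (Pearson r = 0.974), Rhoj (0.968) and Cyp2f2 (0.963). Rhoj, a small GTPase of endothelial cells, had intensities of 701 in Norm, 533 and 732 at 10 h, 156 and 195 at 2 d, 612 and 458 at 4 d, and 454 and 427 at 6 d. Cyp2f2, a cytochrome of club cells, had 13539, 10836 and 15062, 3212 and 3418, 15023 and 8857, and 9599 and 9338. Each of the 3 was at its lowest on the 2 d arrays, which set much of these correlations, and the arrays share their hybridisation and RNA. At 2 d Rhoj and Lypla1 (195 and 171, with 389 in Norm) were under the floor of 236.05, so their log2 levels there are the floor value.

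Partners of the HIF machinery showed no call. A list of 30 genes, among them subunits of the Vhl ligase, coactivators, chaperones and other ligases of the pathway, had 25 tested genes. In each of the 8 comparisons and in the F test 0 of 25 passed, beside 205 of 13039 genes at 2 d and 137 in the F test. At 2 d, 13 were higher and 12 lower, with a median log2 difference of 0.01 beside 0.00 over all genes, and 4 of 25 had an unadjusted p under 0.05, beside 2400 of 13039 genes. Ncoa1, a coactivator, was lowest in p: its intensities were 1212 and 1915 in Norm, 846 and 753 at 2 d, and 1622 to 1861 at the other times. The 2 d arrays were below all others, and the difference from Norm was -0.93 ± 0.21 (adjusted p = 0.0598, limma). Another Ncoa1 probe set did not separate the groups, with 546 in Norm and 423 and 601 at 2 d.

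Genes listed as targets of HIF were also read, as RNA only, since the activity of HIF itself was not measured. Of 42 listed targets 38 were tested. At 10 h, 27 were higher and 10 lower than Norm, with a median log2 difference of 0.18, beside 6160 higher and 6450 lower and a median of 0.00 over all genes. Of the targets 0 of 38 passed, and 6 of 38 had an unadjusted p under 0.05 in either direction, beside 729 of 13039 genes. These 6 were not all higher, and among those lower was Cxcr4, at -1.41 ± 0.51 on the log2 scale. Targets on type A were all compared with the same lone Norm array, so their differences from Norm are not independent. Edn1, which encodes endothelin-1, had the smallest p: it gave 710 in Norm, 3370 and 3220 at 10 h, 1878 and 1987 at 2 d, 2373 and 1058 at 4 d, and 1720 and 1573 at 6 d. All 8 arrays of low oxygen were above the Norm array, and those of 10 h were the highest. The difference at 10 h was 2.21 ± 0.39 (adjusted p = 0.282). Bhlhe40, a repressor known as a target of Hif1a, gave 1065 in Norm, 2317 and 2068 at 10 h and 726 to 1324 later, with 1.04 ± 0.24 at 10 h (adjusted p = 0.427). Bnip3, a mediator of mitophagy, was 1.06 ± 0.31 higher at 10 h (adjusted p = 0.585), and Ddit4, an inhibitor of mTOR signalling, 1.05 ± 0.36 (adjusted p = 0.688). A second Bnip3 probe set did not share this, with 194 and 480 in Norm and 290 and 302 at 10 h (-0.07 on the log2 scale).

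At 2 d, when Epas1 102698_at and Cited2 were low, 24 targets were higher and 13 lower, with a median of 0.10, and 0 of 38 passed. Over all 13039 genes, 6561 were higher and 6238 lower, and 205 passed. An unadjusted p under 0.05 was held by 5 of 38 targets, beside 2400 of 13039 genes. Ddit4 was 1.55 ± 0.36 higher (adjusted p = 0.069), Edn1 1.44 ± 0.39 higher (0.0943), the chemokine Cxcl12 1.88 ± 0.50 higher (0.0947) and its receptor Cxcr4 stood at -1.62 ± 0.51 (0.134). The other Edn1 probe set did not share this direction at 2 d, with 678 in Norm and 582 and 585 at 2 d, though at 10 h it too was above Norm (2106 and 2281). At 4 d, 18 were higher and 17 lower (median 0.00), beside 6191 and 6579 of all genes, and at 6 d 22 and 15 (median 0.07), beside 6477 and 6216.

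The target that passed was Ankrd37, an ankyrin repeat protein gene induced by HIF. It gave 1613 and 2753 in Norm, 2503 and 2597 at 10 h, 2711 and 2692 at 2 d, 323 and 238 at 4 d, and 2111 and 2270 at 6 d. The 4 d arrays were far below all others, and 4 d 1b was under the floor of 297.36. Ankrd37 fell at 4 d, with a log2 difference of -2.77 ± 0.22 from Norm (adjusted p = 0.00682, limma) and of -3.04 ± 0.22 from 10 h (adjusted p = 0.00199). Late minus early was -1.67 ± 0.16 (adjusted p = 0.024), and the F test passed (adjusted p = 0.00439). In each of these, 1 of 38 targets passed; of all 13039 genes 1 passed at 4 d, 5 in 4 d minus 10 h, 3 in late minus early and 137 in the F test.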

How the data were processed

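RNA of mouse lung was measured on 30 arrays of 3 types. Per the deposited tables, the authors' values are probe set intensities on a linear scale. On the 29 arrays used, means trimmed by 2% at either end ranged from 800.2 to 800.4, so the values were taken as already scaled and were used as deposited; the summary software is not given in the sources used here. Groups came from the titles. The floor for low values was the 40th percentile of each type (236.05 for A, 297.36 for B and 200.93 for C), applied before log2; a probe set entered the test when it exceeded the floor on 2 or more arrays, and Affymetrix controls did not. Means of the 5 groups were fitted per array type with limma 3.58.1 (R 4.3.3), using eBayes with a variance trend, two-sided, with Benjamini-Hochberg adjustment over the 3 types together. The number of arrays limits the precision.

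Gene symbols came from a platform annotation that can be old, and promoter windows from RefSeq (GRCm38.p6). A list gene was represented by 1 probe set, a plain one first and then the one with the highest level relative to its type. The members, lists, tests and the rule for named genes were chosen with earlier results of these data known: all member probe sets are named, list genes where they passed or were among the 4 with the smallest p, and the 3 genes most like the member with the smallest F test p. On simulated data for 2 d minus Norm over 25199 probe sets, 20 of 101 changes of log2 1 and 77 of 99 of log2 2 were called, with 14 false calls.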

Additional observations from a re-analysis of the deposited data

How the results depend on the processing

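Alternatives covered the normalization (quantile, median), the floor (20th percentile, or none with log2(value + 100)), the filter, the variance trend, the adjustment, the arrays in the fit, the replicate letter as a block, and each sample left out. In these, 10 h, 4 d, 6 d, the mean of low oxygen, late minus early, 4 d minus 10 h and 6 d minus 2 d kept 0 member calls. Both calls at 2 d were lost with no filter, where the count of 1 was Vhl 165334_s_at (adjusted p = 0.0273), and with only the groups compared, where the count was 0 (adjusted p of Epas1 102698_at 0.0912 and 0.195; of Cited2 0.075 and 0.202). The count was 0 to 2 when a sample was left out, and over all alternatives adjusted p-values ran from 0.0112 to 0.195 for Epas1 102698_at and from 0.0126 to 0.202 for Cited2. The 1 call of the F test became 2 without a floor and with a filter of at least 5 arrays, 0 without a variance trend, with adjustment within each type and without the 2 d arrays, and 0 to 2 when a sample was left out. With median scaling the count stayed 1, but Epas1 102698_at (0.0549) gave way to Cited2 (0.044). The cause of these changes was not tested, except that fewer arrays were fitted where samples or groups were left out.

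The letters 1a and 1b did not pair the samples: the correlation of the 1a minus 1b differences between groups was -0.158 to 0.134 over 26 pairs of groups. With the replicate block, 2 d minus Norm kept 2 calls (adjusted p = 0.0491 for Epas1 102698_at and 0.0486 for Cited2) and the F test called 0.

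Of 152 member differences 69 changed sign under some alternative, among them 0 of 16 with an unadjusted p under 0.05. At 2 d, Epas1 114665_at turned to -0.168 under quantile normalization. Hif1a turned to -0.194 (98628_f_at) and -0.0557 (98629_f_at) without 2 d 1b (0.335 and 0.394 without 1a), Vhl 106085_at to 0.0755 (-0.432 without Norm 1b) and Egln1 108095_at to 0.142 without Norm 1a, and Egln1 108095_at to 0.0407 without 2 d 1b. Egln3 135609_at turned to 0.00169 under quantile normalization, 0.0531 with median scaling, 0.122 without Norm 1b (-0.179 without 1a) and 0.107 without 2 d 1a. Vhl 165334_s_at passed at 2 d under 1 alternative, no filter (adjusted p from 0.0273 to 0.232 over all). Counting every tested probe set of a target gene in place of 1, the calls among HIF targets became 1 at 2 d (Plod1 165010_f_at, 1.07 ± 0.21 higher, adjusted p = 0.0440) and 2 in the F test (Ankrd37 and Edn1 102738_s_at, adjusted p = 0.0209), both named after their values were seen.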
